A study of Arabidopsis thaliana with 6 samples.

Results

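DCL4-8:FHA and DCL4-6:FHA, a pair of tagged forms of the Arabidopsis thaliana Dicer DCL4, were compared by the RNA that came down with them from seedlings. The comparison takes 2 of the 6 immunoprecipitation libraries of the series, chosen by their labels, and asks how the bound RNA of each line was shared among 10 loci and along each locus. Both tagged proteins were made from the promoter of DCL4 in the dcl4-2 mutant. The labels do not say what change DCL4-6 or DCL4-8 carries. Untagged wild-type (WT) Columbia seedlings served as background only. All plants were of the Columbia ecotype, and the labels give no age and do not say how many plants entered a library or whether a line was 1 transformant. Each line had 1 library and no replicate, so there was no test. Intervals are 95% and cover counting error only, because there is 1 library a line. Without molecular identifiers PCR copies of a fragment count as separate reads, so the intervals may be too narrow even for counting error.

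The Dicer DCL4 releases small interfering RNAs (siRNAs) of 21 nt from double-stranded precursors. One class of its substrates is the trans-acting siRNA (TAS) transcripts, which a microRNA cuts and the polymerase RDR6 then copies into double-stranded RNA. The TAS class holds TAS1a, TAS1b, TAS1c and TAS2, which are cut by miR173, TAS3a and TAS3b, which carry a pair of miR390 sites, and TAS4, a target of miR828. In the fold-back class a single transcript pairs with itself and needs no copying. It holds the inverted repeats IR71 and IR2039 and the hairpin of miR822, a young microRNA known to be made by DCL4. Reads were 50 nt long, per the labels' protocols. Aligned and fragment lengths were not measured, so the coverage described here was not assigned to precursors or to siRNAs.

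The miRNA sites of TAS1a, TAS1b, TAS1c, TAS2 and TAS3a are shown first, because coverage is placed relative to them. In the microRNAs the seed (bases 2 to 8) is in capitals. In the sites the capitals mark the bases opposite miRNA bases 11 and 10, between which a cut would fall. At TAS3a distances were taken from the 3′ site only, and no cut is implied at the 5′ site. Sequences are of the RefSeq TAIR10.1 assembly, written 5′ to 3′ as DNA.
ath-miR173-5p: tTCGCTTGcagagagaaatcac
TAS1a site: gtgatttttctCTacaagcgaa
TAS1b site: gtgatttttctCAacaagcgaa
TAS1c site: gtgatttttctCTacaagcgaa
TAS2 site: gtgatttttctCTccaagcgaa
ath-miR390a-5p: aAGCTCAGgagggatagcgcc
TAS3a 5′ site: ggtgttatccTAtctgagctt
TAS3a 3′ site: ttgtctatccCTcctgagcta
On TAIR10 these sites lie at chr2:11722081-11722102 (TAS1a), chr1:18549660-18549681 (TAS1b), chr2:16537890-16537911 (TAS1c) and chr2:16539991-16540012 (TAS2), all on the minus strand. The TAS3a sites lie on the plus strand at chr3:5862099-5862119 and chr3:5862343-5862363. Each TAS locus is an annotated noncoding RNA gene: AT2G27400 (TAS1a), AT1G50055 (TAS1b), AT2G39675 (TAS1c), AT2G39681 (TAS2), AT3G17185 (TAS3a), AT5G49615 (TAS3b) and AT3G25795 (TAS4).

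Recovered from the coverage steps, the DCL4-8:FHA library held 21771069 reads, the DCL4-6:FHA library 17781670 and the WT library 1961876. The tagged libraries differed 1.22-fold in depth, and the WT library was the shallowest of the 3. The 10 loci together took 0.162% of the DCL4-8:FHA library, 0.0184% of the DCL4-6:FHA library and 0.000816% of the WT library, with each read counted once. Scaled to library size, DCL4-8:FHA thus carried 8.80 times as many reads of these loci as DCL4-6:FHA. Amount of protein, recovery of the precipitation and abundance of the transcripts were not measured separately, and with 1 library a line they cannot be told apart, nor can fewer cells with an RNA and less of it per cell. Shares and odds within a library do not depend on a factor common to all its loci, whereas every level in RPM and every ratio of levels between the lines given below does.

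The bound RNA of the lines was of opposite composition. TAS transcripts made up 90.0% of the DCL4-8:FHA reads over the 10 loci (interval 89.7 to 90.3; 32219 of 35792 reads), against 15.9% of the DCL4-6:FHA reads (14.8 to 17.0; 674 of 4241). The fold-back loci made up 9.98% in DCL4-8:FHA and 84.1% in DCL4-6:FHA. With reads of several genomic places counted once, the TAS shares were 91.4% in DCL4-8:FHA (91.1 to 91.6) and 20.6% in DCL4-6:FHA (19.2 to 22.0). Shares not counted once enter a read of several places more than once. Their intervals are therefore too narrow where IR71 is included. There were 10.6 TAS reads for each fold-back read in DCL4-8:FHA, against 0.259 in DCL4-6:FHA, an odds ratio of 40.7 (37.1 to 44.7). Read counts scaled to library size (in RPM) were 1480 for TAS in DCL4-8:FHA and 37.9 in DCL4-6:FHA. For the fold-back class, counted once, they were 140 in DCL4-8:FHA and 146 in DCL4-6:FHA. Counted at each place the fold-back values were 164 in DCL4-8:FHA and 201 in DCL4-6:FHA. Which class carries the gap depends on this scaling: relative to the median log2 ratio of the loci, TAS2 was at 0 and IR71 at -5.79.

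Background bears most on the TAS reads of DCL4-6:FHA. WT seedlings had 11 TAS reads, which scale to 99.7 at the depth of the DCL4-6:FHA library, beside its 674. At TAS1b the WT reads scaled in this way would be 36.3, more than the 19 seen in DCL4-6:FHA. Over TAS1a, TAS1b, TAS1c and TAS2, 0.0220% of DCL4-8:FHA coverage lay 5′ of the cut (interval 0.00759 to 0.0450), and 0% of DCL4-6:FHA coverage (0 to 0.597). In WT the share was 49.5% (16.7 to 76.6), from 11 reads. WT reads were thus not placed like those of DCL4-6:FHA, so the scaled WT number cannot be read as a part of its reads. With that limit, the TAS share of DCL4-6:FHA less the WT level was 14.4%.

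**Figure D1:**
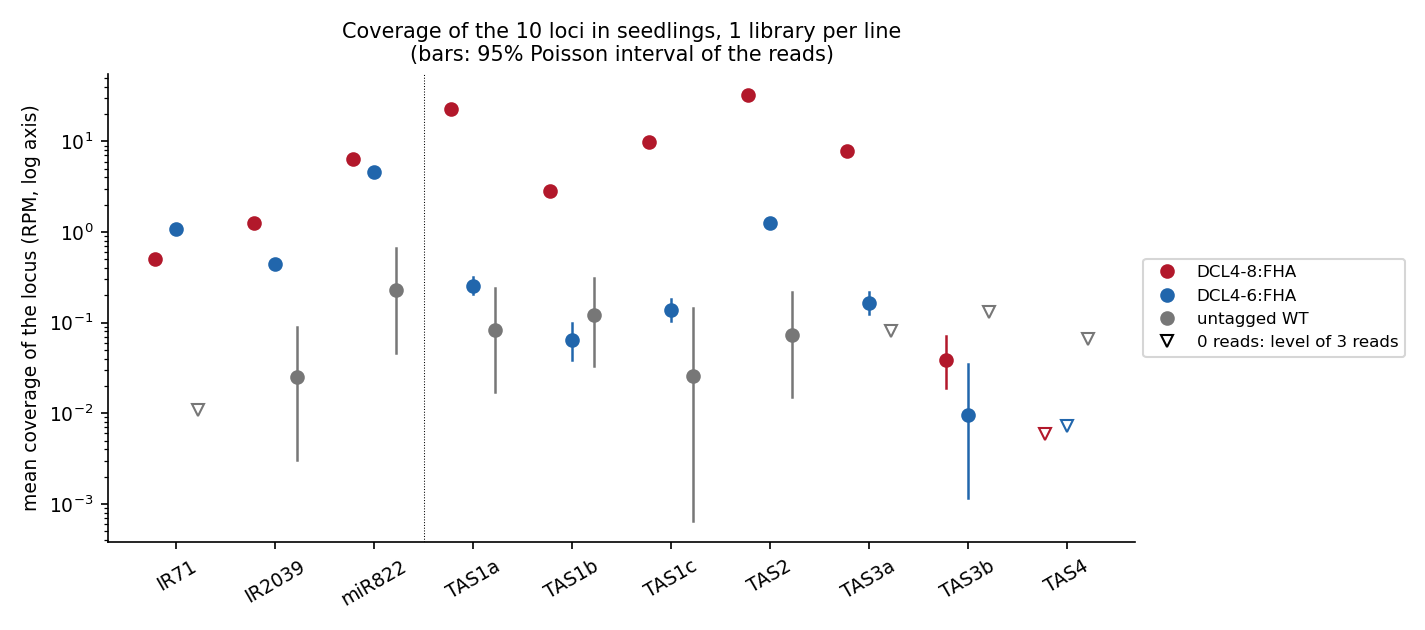
Mean coverage of each locus in RPM on a log axis for DCL4-8:FHA, DCL4-6:FHA and untagged WT seedlings, 1 library each, with 95% Poisson intervals; open triangles mark the level that 3 reads would give where a library had 0. The DCL4-8:FHA points of the TAS loci lie far above those of DCL4-6:FHA except at TAS3b and TAS4, while at the fold-back loci left of the dotted line the points lie close together.

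By locus, 7 of the 9 loci with reads in both lines were higher in DCL4-8:FHA (77.8%) and 1 was lower (11.1%), where a call means that the interval of the ratio of mean coverage excluded 1. Relative to the median log2 ratio of the loci, IR2039 (-3.17), miR822 (-4.20) and TAS3b (-2.64) lay below 0, the opposite direction from their unscaled ratios. The order of the levels (mean coverage per position) differed between the lines. In DCL4-8:FHA it ran TAS2 (32.1 RPM), TAS1a (22.7), TAS1c (9.96), TAS3a (7.76), miR822 (6.36), TAS1b (2.87), IR2039 (1.26), IR71 (0.498) and TAS3b (0.0391), and no neighbours had overlapping intervals. In DCL4-6:FHA it ran miR822 (4.58 RPM), TAS2 (1.26), IR71 (1.08), IR2039 (0.444), TAS1a (0.257), TAS3a (0.166), TAS1c (0.139), TAS1b (0.0637) and TAS3b (0.00958). There the intervals of TAS1a and TAS3a overlapped, as did those of TAS3a and TAS1c. miR822 was thus first in DCL4-6:FHA, and lay below TAS2, TAS1a, TAS1c and TAS3a in DCL4-8:FHA.

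TAS2 was the most abundant TAS transcript in both lines, but its weight differed. It took 44.9% of the TAS reads in DCL4-8:FHA (interval 44.4 to 45.5; 14472 reads) and 68.8% in DCL4-6:FHA (65.2 to 72.3; 464 reads). TAS1a, a source of siRNAs in the miR173 group, took 28.5% of the TAS reads in DCL4-8:FHA (9193 reads) and 12.6% in DCL4-6:FHA (85 reads), and WT had 3 reads there. TAS1c took 13.3% in DCL4-8:FHA (4294 reads) and 7.26% in DCL4-6:FHA (49 reads), against 1 read in WT.

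Relative to TAS2, all 3 TAS1 loci had more reads in DCL4-8:FHA than in DCL4-6:FHA. TAS1a had 0.635 reads per TAS2 read in DCL4-8:FHA and 0.183 in DCL4-6:FHA, an odds ratio of 3.47 (interval 2.74 to 4.43). For TAS1c the values were 0.297 in DCL4-8:FHA and 0.106 in DCL4-6:FHA, an odds ratio of 2.81 (2.09 to 3.86). For TAS1b the odds ratio was 1.77 (1.12 to 2.98), from 19 reads in DCL4-6:FHA, fewer than the scaled WT level. TAS2 was the TAS locus with over 10 reads in each line that differed least between the alleles, 25.5-fold (23.2 to 28.0), against 88.5-fold at TAS1a (71.5 to 111). Background bears on TAS1a too: at the depth of DCL4-6:FHA its WT reads scale to 27.2, beside the 85, with the same limit. Less the WT level, the log2 ratio went from 6.47 to 7.02 at TAS1a and from 4.67 to 4.76 at TAS2. The intervals and odds do not include this background.

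The remaining TAS loci lay between these or had few reads. TAS3a, whose siRNAs act on auxin response factor genes, took 9.93% of TAS reads in DCL4-8:FHA (9.61 to 10.3; 3200 reads) and 8.29% in DCL4-6:FHA (6.34 to 10.7; 56 reads), and these intervals overlap. Its odds against TAS2 were 1.83-fold higher in DCL4-8:FHA (1.38 to 2.47). TAS1b took 3.26% in DCL4-8:FHA (1050 reads) and 2.82% in DCL4-6:FHA (19 reads), with overlapping intervals. Between TAS1a and TAS1c the odds did not separate the lines, with a ratio of 1.23 (0.848 to 1.78). TAS3b had 10 reads in DCL4-8:FHA, 2 in DCL4-6:FHA and 0 in WT, and the interval of its ratio (0.870 to 38.3) held 1. TAS4 had 0 reads in all 3 libraries, with upper interval limits of 0.00734 RPM in DCL4-8:FHA, 0.00898 RPM in DCL4-6:FHA and 0.0814 RPM in WT.

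Within the fold-back class IR71 had a smaller share and IR2039 a larger one in DCL4-8:FHA. IR71, on chromosome 3 at 1963599 to 1970598, overlaps the genes AT3G01835, AT3G00220, AT3G01845, AT3G06435 and AT3G06436. It took 42.5% of fold-back reads in DCL4-8:FHA (1517 reads) and 75.6% in DCL4-6:FHA (2695 reads), and IR2039 took 31.4% in DCL4-8:FHA and 9.04% in DCL4-6:FHA. IR71 was thus first in both lines by this count. With reads of several places counted once, these were 32.7% in DCL4-8:FHA (31.0 to 34.4) and 66.5% in DCL4-6:FHA (64.6 to 68.3). IR2039, which overlaps AT3G44570 and AT3G44580, took 36.7% in DCL4-8:FHA (35.0 to 38.5) and 12.4% in DCL4-6:FHA (11.1 to 13.7) by that count. There were 1.12 reads of IR2039 per IR71 read in DCL4-8:FHA and 0.186 in DCL4-6:FHA, an odds ratio of 6.02 (5.19 to 7.0). The fold-back loci therefore did not act as 1 group, although their sum, counted once, was nearly equal in the lines. miR822 took 30.6% in DCL4-8:FHA (933 reads) and 21.1% in DCL4-6:FHA (549 reads).

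**Figure D2:**
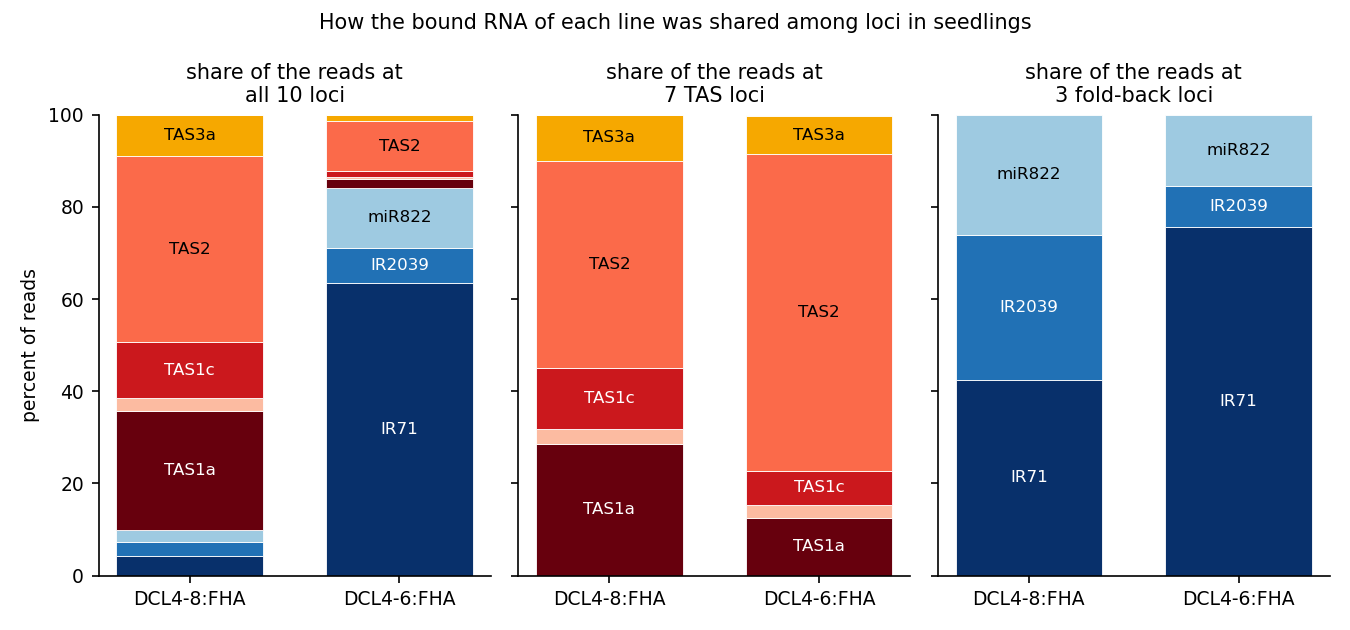
Stacked shares (percent of reads, not divided among genomic places) of DCL4-8:FHA and DCL4-6:FHA seedlings over all 10 loci, over the 7 TAS loci and over the 3 fold-back loci. TAS loci (red and yellow) fill 90.0% of the DCL4-8:FHA bar and 15.9% of the DCL4-6:FHA bar; TAS2 takes 44.9% of TAS reads in DCL4-8:FHA and 68.8% in DCL4-6:FHA, and IR71 takes 42.5% of fold-back reads in DCL4-8:FHA and 75.6% in DCL4-6:FHA.

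Along the loci, coverage was divided into bins of 50 nt and each bin was given as a share of its locus, for the 7 loci with at least 20 reads in both lines. TAS1b, TAS3b and TAS4 had fewer in DCL4-6:FHA and their profiles were not compared. The part of the coverage placed in different bins was 8.49% at TAS2, 8.68% at TAS3a, 17.4% at TAS1c, 18.6% at IR2039, 18.7% at IR71, 19.0% at TAS1a and 21.9% at miR822. Counting error alone gives such a part and gives more of it where reads are few or bins many, so these values are not ranked. Of the 267 bins, 8 (3.0%) differed by more than 5 percentage points with separate intervals, 4 of them higher and 4 lower in DCL4-8:FHA. They lay in miR822 (4 bins), TAS1a (2), TAS2 (1) and IR2039 (1). A read that spans a bin border is split between bins, so the intervals of bins are approximate.

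In the miR173 group the highest bin was the same in both lines at TAS1a and TAS2. At TAS1a the bin at chr2:11721938-11721987 held 37.9% of coverage in DCL4-8:FHA and 43.1% in DCL4-6:FHA, and its intervals overlapped. At TAS2 the bin at chr2:16539833-16539882 held 33.9% in DCL4-8:FHA and 34.7% in DCL4-6:FHA. At TAS1c the highest bin was chr2:16537787-16537836 in DCL4-8:FHA, with 28.6% against 20.6% in DCL4-6:FHA, and chr2:16537737-16537786 in DCL4-6:FHA, with 20.8% in DCL4-8:FHA against 29.1%; the intervals overlapped in both bins. At TAS3a the shared highest bin, chr3:5862140-5862189, held 50.9% in DCL4-8:FHA and 47.8% in DCL4-6:FHA.

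All 3 TAS1 transcripts share a stretch of 23 nt on the 3′ side of the cut, the longest run that a search found in all of them. It is printed in capitals within its flanks, because it lies under or beside the main peaks of these loci. TAS1c in DCL4-6:FHA is an exception, with its deepest coverage farther on, at base 164 after the cut.
TAS1a stretch: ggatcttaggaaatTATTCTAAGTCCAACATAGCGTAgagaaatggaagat
TAS1b stretch: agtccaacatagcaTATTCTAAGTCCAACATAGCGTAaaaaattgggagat
TAS1c stretch: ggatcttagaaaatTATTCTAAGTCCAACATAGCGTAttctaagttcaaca
Its last 21 bases are the sequence of the tasiRNA known as siR255. They run from base 106 to base 126 after the cut in TAS1a and TAS1b, the end of the 6th interval of 21 nt, and from base 43 to base 63 in TAS1c, the end of the 3rd. Coverage at the stretch was 171 RPM in DCL4-8:FHA and 1.76 RPM in DCL4-6:FHA at TAS1a, 11.2 RPM in DCL4-8:FHA and 0.147 RPM in DCL4-6:FHA at TAS1b, and 41.0 RPM in DCL4-8:FHA and 0.325 RPM in DCL4-6:FHA at TAS1c. As a share of the locus it held 18.7% in DCL4-8:FHA and 16.9% in DCL4-6:FHA at TAS1a, and 9.56% in DCL4-8:FHA and 5.43% in DCL4-6:FHA at TAS1c. The stretch was thus covered in both lines at each of the 3 loci. WT coverage of TAS1a was also deepest beside the stretch, at base 127, with 2 reads or 1.02 RPM. At TAS1b WT had 4 reads, and their coverage ended at base 39, before the stretch. The 19 DCL4-6:FHA reads of the whole locus were fewer than the scaled WT reads. Coverage of the stretch above background was therefore not shown for DCL4-6:FHA at TAS1a. At TAS1b 4 WT reads are too few to set the background of the stretch.

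At TAS1a and TAS2 a larger share of coverage lay close to the cut in DCL4-8:FHA, while at TAS1c and TAS3a the lines could not be separated at this depth. Bases were counted from the cut into the fragment that RDR6 copies, 3′ of it for the miR173 loci and 5′ of the 3′ site for TAS3a. The point by which 5% of coverage had been passed lay at base 44 in DCL4-8:FHA and base 76 in DCL4-6:FHA at TAS1a. At TAS1c it lay at base 36 in DCL4-8:FHA and base 54 in DCL4-6:FHA. At TAS2 and at TAS3a it lay at base 65 in DCL4-8:FHA and base 92 in DCL4-6:FHA. These points carry no interval and rest on few reads in DCL4-6:FHA outside TAS2. The median lay nearer the cut too, at base 129 in DCL4-8:FHA and base 143 in DCL4-6:FHA for TAS1a, but by only 2 bases at TAS2 (129 in DCL4-8:FHA and 131 in DCL4-6:FHA). At the far end the lines had no common order. The 95% point lay at base 336 in DCL4-8:FHA and base 401 in DCL4-6:FHA at TAS1a, but at base 279 in DCL4-8:FHA and base 218 in DCL4-6:FHA at TAS2.

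Within 100 nt of the cut, a window chosen after the profiles were seen, the share of coverage at TAS1a was 27.6% in DCL4-8:FHA (interval 26.7 to 28.5) and 15.4% in DCL4-6:FHA (8.40 to 24.7). That is an odds ratio of 2.11 (1.16 to 4.16). At TAS2 the share was 19.8% in DCL4-8:FHA (19.2 to 20.5) and 13.1% in DCL4-6:FHA (10.2 to 16.6), an odds ratio of 1.63 (1.24 to 2.18). The intervals of the lines were separate at these loci. No share was corrected for WT, which had 0.88 of its 3 TAS1a reads within the window. TAS1c had 38.6% in DCL4-8:FHA and 24.0% in DCL4-6:FHA, with an odds ratio of 1.94 whose interval (0.984 to 4.09) held 1. TAS3a had 12.0% in DCL4-8:FHA and 7.04% in DCL4-6:FHA (odds ratio 1.78, 0.649 to 6.81), from 4 reads in DCL4-6:FHA. In windows 25 nt narrower and 25 nt wider the share was also higher in DCL4-8:FHA at each of these 4 loci, with the smallest gap at TAS2 in the wider window (46.4% in DCL4-8:FHA and 43.2% in DCL4-6:FHA).

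One of the 8 bins that differed abuts the TAS1a site, and it is printed with the bases of the miR173 site in capitals.
TAS1a bin at the site: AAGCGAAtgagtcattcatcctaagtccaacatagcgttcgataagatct
This bin, chr2:11722038-11722087, held 7.05% of coverage in DCL4-8:FHA (6.53 to 7.59) and 1.3% in DCL4-6:FHA (0.0298 to 6.38). A second TAS1a bin, chr2:11721838-11721887, held 7.87% in DCL4-8:FHA and 1.70% in DCL4-6:FHA. In DCL4-6:FHA each of these bins rests on fewer than 2 reads. At TAS2 the bin chr2:16539783-16539832 was lower in DCL4-8:FHA, with 18.6% (18.0 to 19.2) against 25.8% in DCL4-6:FHA (21.9 to 30.1). It covers a second peak farther from the cut.

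In flowers, where the same lines were sampled in other libraries, the share within 100 nt of the cut was also higher in DCL4-8:FHA at TAS1a, TAS1b, TAS1c, TAS2 and TAS3a. At TAS1c it was 26.9% in DCL4-8:FHA flowers (25.7 to 28.2) and 10.7% in DCL4-6:FHA flowers (4.27 to 23.0), with separate intervals. At TAS2 it was 20.9% in DCL4-8:FHA flowers (19.95 to 21.9) and 17.0% in DCL4-6:FHA flowers (13.0 to 21.7), with overlapping intervals. TAS3b, not compared in seedlings, had 12.9% in DCL4-8:FHA flowers and 3.48% in DCL4-6:FHA flowers, from 25.9 reads in the DCL4-6:FHA library. TAS1c was the only one of these loci with separate intervals in flowers.

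**Figure D3:**
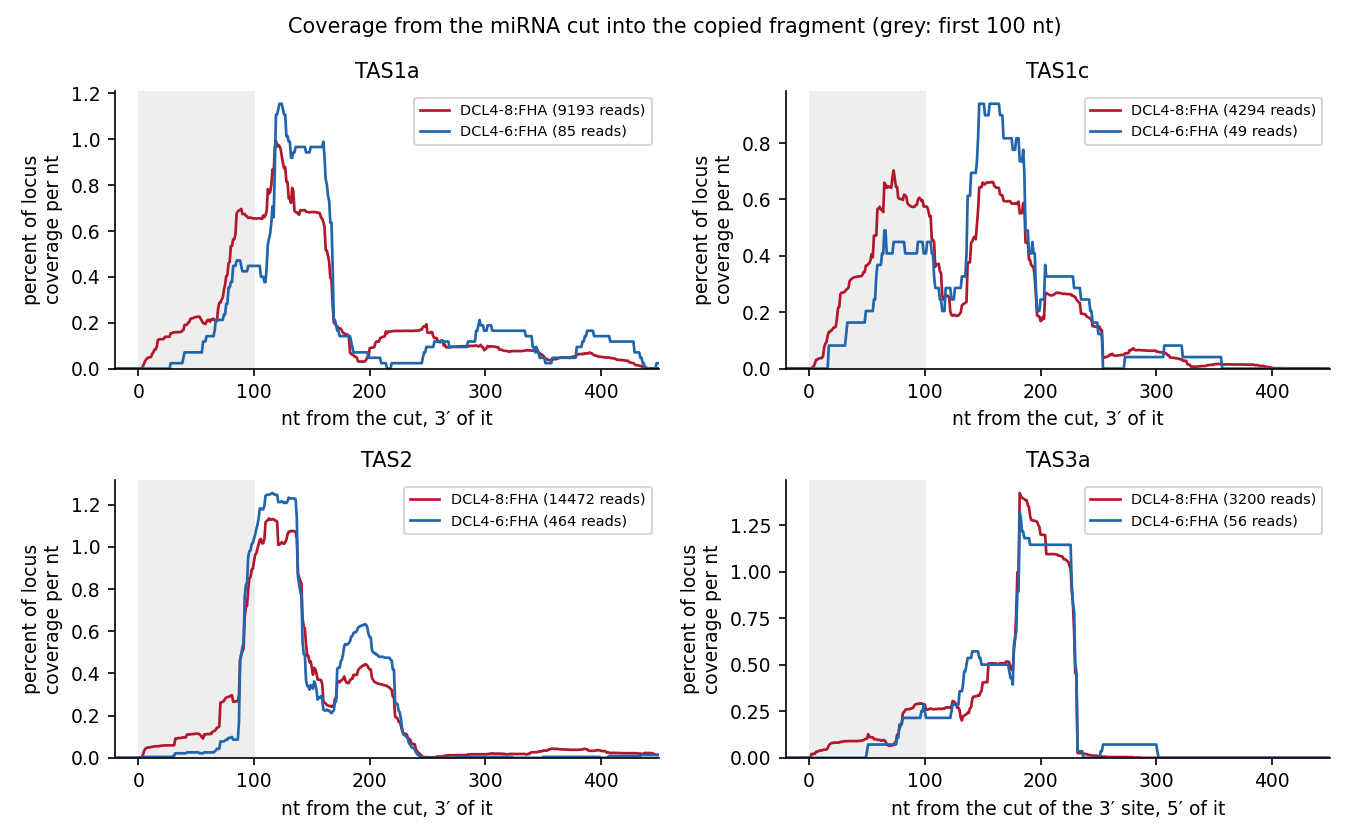
Percent of locus coverage at each nt (vertical axis) against the distance from the miRNA cut in nt (horizontal axis) at TAS1a, TAS1c, TAS2 and TAS3a, with DCL4-8:FHA in red, DCL4-6:FHA in blue and the first 100 nt shaded. The deepest base is the same at TAS3a (base 182) and differs at TAS1c (base 73 in DCL4-8:FHA and base 164 in DCL4-6:FHA); the shaded stretch holds 19.8% of TAS2 coverage in DCL4-8:FHA and 13.1% in DCL4-6:FHA.

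**Figure D4:**
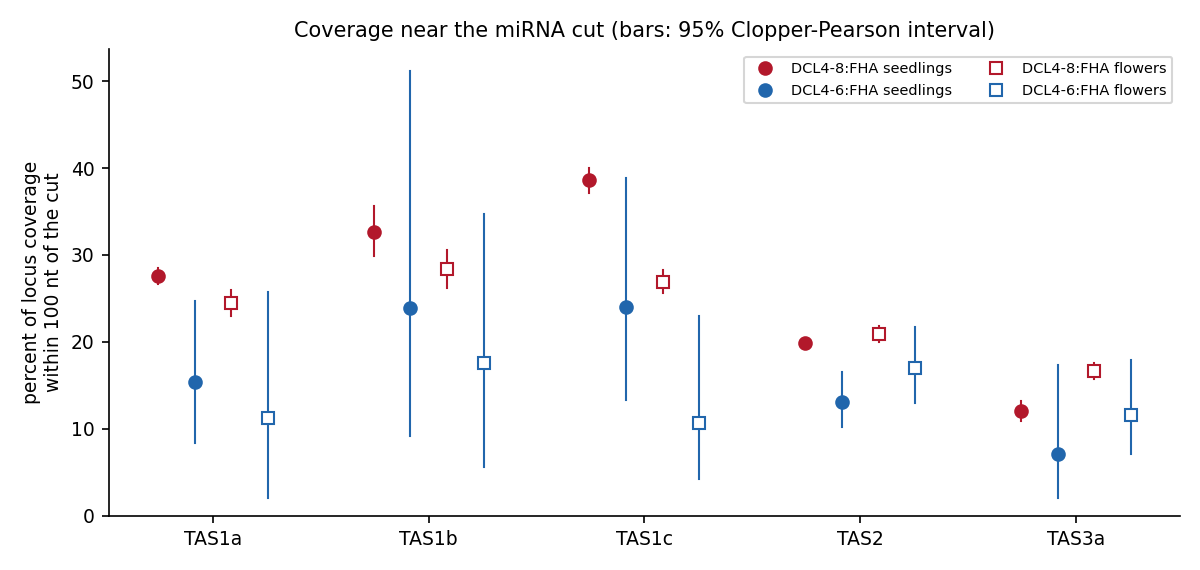
Percent of locus coverage within 100 nt of the cut at 5 TAS loci, with 95% Clopper-Pearson intervals, for DCL4-8:FHA and DCL4-6:FHA in seedlings (filled circles) and flowers (open squares). Each DCL4-8:FHA value lies above the DCL4-6:FHA value of the same tissue, such as 38.6% in DCL4-8:FHA against 24.0% in DCL4-6:FHA at TAS1c in seedlings, and several intervals overlap.

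The miR822 hairpin differed between the lines in the share of its 5p side. MIR822 (AT5G03552) lies on the minus strand within AT5G03553, and its hairpin was divided at the centre of its self-alignment into a side with the mature miR822-5p and a side with miR822-3p. The mature miRNAs and the stretches where the coverage of each line rose most are printed, with the seed in capitals in the miRNAs and the bases of miR822-3p in capitals in the second stretch.
ath-miR822-5p: tGCGGGAAgcatttgcacatg
ath-miR822-3p: tGTGCAAAtgctttctacagg
DCL4-8:FHA stretch: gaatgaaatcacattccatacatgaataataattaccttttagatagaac
DCL4-6:FHA stretch: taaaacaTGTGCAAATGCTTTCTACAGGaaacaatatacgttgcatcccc
The first stretch, chr5:897228-897277, has at its lowest coordinate the largest step in DCL4-8:FHA, 133 reads, against 33 reads in DCL4-6:FHA. The second, chr5:897045-897094, has at its lowest coordinate the largest step in DCL4-6:FHA, 124 reads, against 105 in DCL4-8:FHA. Both are printed on the minus strand, so the lowest coordinate is the last base printed.

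Scaled to library size, the 3p side had a read count of 23.5 RPM in DCL4-8:FHA (512 reads) and 23.7 RPM in DCL4-6:FHA (421 reads), a ratio of 0.993 (interval 0.871 to 1.13). The 5p side had 19.3 RPM in DCL4-8:FHA (421 reads) and 7.19 RPM in DCL4-6:FHA (128 reads), a ratio of 2.69 (2.20 to 3.30). The whole hairpin was 1.39-fold higher (1.25 to 1.55). These ratios depend on the scaling to library size, and only the shares of the sides do not. The 5p side held 45.1% of coverage in DCL4-8:FHA (41.9 to 48.4) and 23.3% in DCL4-6:FHA (19.8 to 27.1). WT had 3 reads, all of them on the 5p side, or 1.53 RPM. In flowers the share of the 5p side was 38.7% in DCL4-8:FHA and 38.2% in DCL4-6:FHA, with overlapping intervals.

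By bins, the 5p side was higher in DCL4-8:FHA at chr5:897219-897268, with 31.3% of its coverage against 15.7% in DCL4-6:FHA, and at chr5:897269-897318, with 13.3% against 7.43% in DCL4-6:FHA. The 3p side was lower in share at chr5:897069-897118, with 25.3% in DCL4-8:FHA against 40.1% in DCL4-6:FHA, and at chr5:897019-897068, with 29.5% in DCL4-8:FHA against 36.5% in DCL4-6:FHA. The bases of the mature miR822-3p were covered at 20.6 RPM in DCL4-8:FHA and 22.9 RPM in DCL4-6:FHA. Those of miR822-5p were covered at 2.37 RPM in DCL4-8:FHA and 1.07 RPM in DCL4-6:FHA. Coverage on the 5p side thus peaked toward the loop from the mature 5p sequence, in the first stretch printed above.

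IR2039 was 2.84-fold higher in DCL4-8:FHA as a whole (2.51 to 3.23), and both sides of its hairpin moved by a like factor. With reads counted once, the ratio was 2.69 on the left side (2.28 to 3.18) and 3.02 on the right (2.5 to 3.68). A single bin stood apart, chr3:16160377-16160426, with 5.33% of coverage in DCL4-8:FHA (4.11 to 6.83) and 12.7% in DCL4-6:FHA (9.29 to 16.9). It was the highest bin of DCL4-6:FHA, and it is printed for that reason.
IR2039 bin: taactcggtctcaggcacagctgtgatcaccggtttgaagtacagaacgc
The highest bin of DCL4-8:FHA, chr3:16159827-16159876, held 10.3% in DCL4-8:FHA and 9.76% in DCL4-6:FHA.

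At IR71 the lines differed less next to the loop than elsewhere. The arms, 98.9% identical, enclose a loop of 237 nt. The arm bases within 300 nt of the loop, a window chosen after the profile was seen, held 31.0% of coverage in DCL4-8:FHA (28.7 to 33.4) and 20.8% in DCL4-6:FHA (19.3 to 22.4). With reads counted once these shares were 35.5% in DCL4-8:FHA (32.5 to 38.6) and 24.2% in DCL4-6:FHA (22.3 to 26.4). Next to the loop the ratio of DCL4-8:FHA to DCL4-6:FHA was 0.685 (0.592 to 0.790), and over the rest of the locus it was 0.401 (0.364 to 0.441). In flowers the share next to the loop lay the other way round, with 17.3% in DCL4-8:FHA and 27.3% in DCL4-6:FHA. In seedlings the highest bin of DCL4-8:FHA, chr3:1967199-1967248, spans the border of loop and right arm. It held 4.64% in DCL4-8:FHA against 2.67% in DCL4-6:FHA, with separate intervals. Of the 140 bins of IR71, 2 had separate intervals, and 0 passed the 5 points used to name a bin. The highest bin of DCL4-6:FHA was its neighbour, chr3:1967249-1967298, with 4.23% in DCL4-8:FHA and 3.42% in DCL4-6:FHA. Reads that match both arms appear to be counted at each, since matching bases of the arms had nearly equal coverage (r = 0.994 in DCL4-8:FHA and 0.998 in DCL4-6:FHA over 1177 pairs). The arms were therefore not set against each other.

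**Figure D5:**
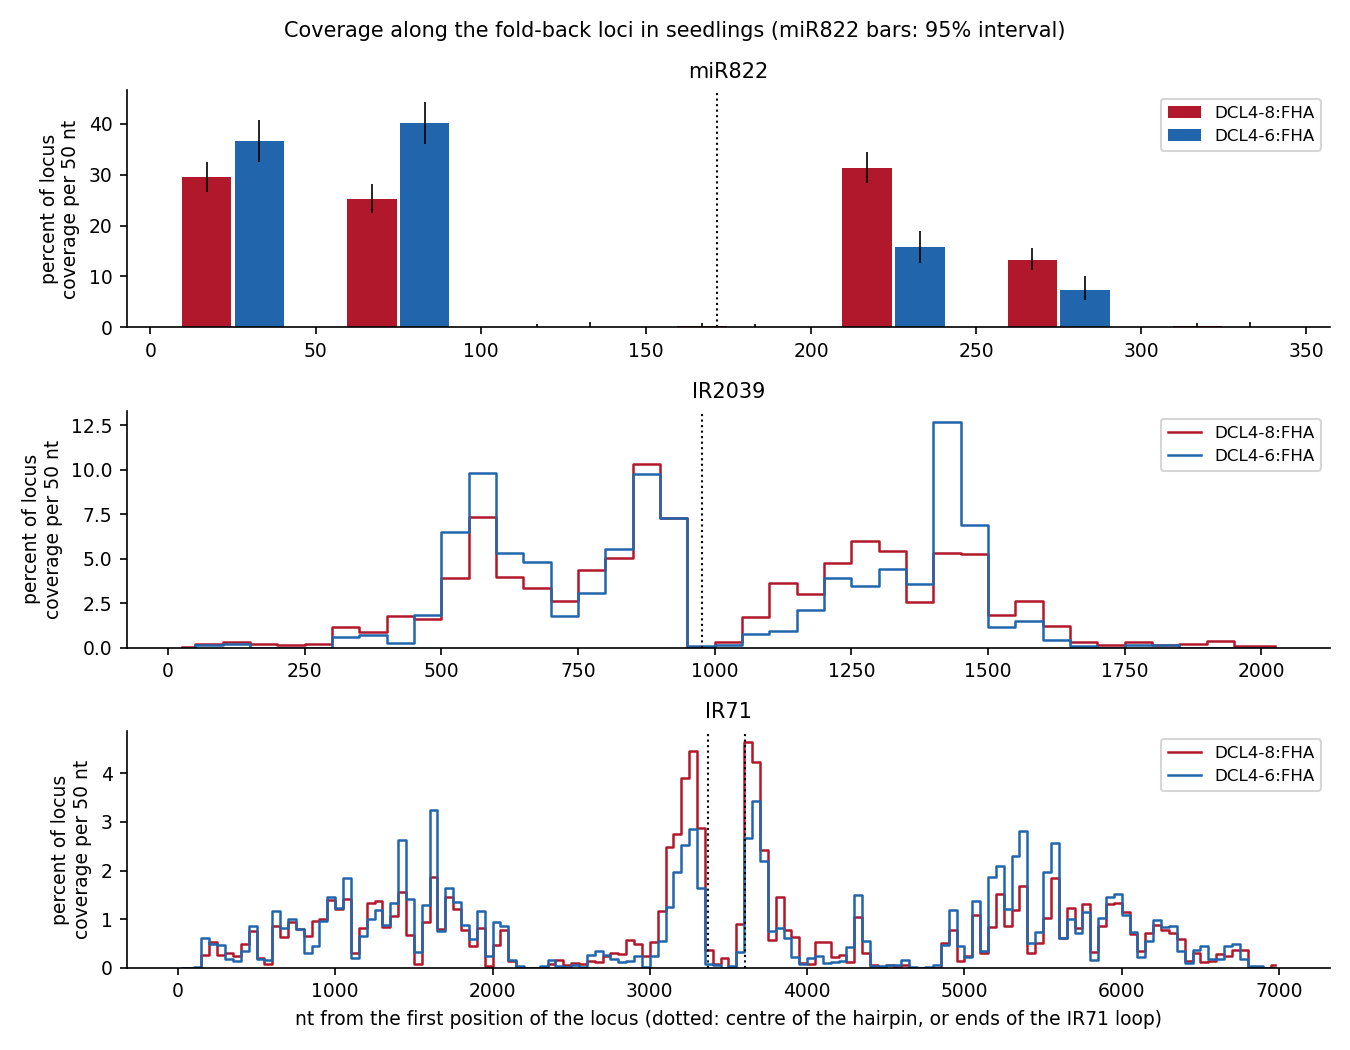
Percent of locus coverage per 50 nt bin against the distance from the first position of miR822, IR2039 and IR71, with DCL4-8:FHA in red and DCL4-6:FHA in blue; dotted lines mark the centre of the hairpin or the ends of the IR71 loop, and bars on miR822 are 95% Clopper-Pearson intervals. On the right (5p) side of miR822 the red bars are higher, 31.3% in DCL4-8:FHA against 15.7% in DCL4-6:FHA in the tallest, and next to the IR71 loop the red line is higher.

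Flowers give a second pair of libraries for the composition. There TAS transcripts made up 73.8% of reads in DCL4-8:FHA (73.3 to 74.2) and 18.4% in DCL4-6:FHA (17.1 to 19.8). TAS2 took 29.6% of TAS reads in DCL4-8:FHA flowers and 51.1% in DCL4-6:FHA flowers, again less in DCL4-8:FHA. The fold-back class took 26.2% in DCL4-8:FHA flowers and 81.6% in DCL4-6:FHA flowers, the same direction as in seedlings. Its counts, each read counted once, were 533 RPM in DCL4-8:FHA flowers and 137 RPM in DCL4-6:FHA flowers. They were not nearly equal, unlike in seedlings. The division within the class lay the other way round from seedlings. IR71 took 67.3% of fold-back reads in DCL4-8:FHA flowers and 41.2% in DCL4-6:FHA flowers, each read counted once. Tissue, plant batch and precipitation cannot be told apart in these values.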

How the data were processed

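RNA that came down with tagged DCL4 was sequenced as single-end reads of 50 nt, per the labels' protocols. The authors deposited a coverage signal, scaled to library size (RPM), at each position of 10 loci. Per the submitters' processing notes, the tools were HISAT2 2.0.5 and bedtools 2.25.0, without stated roles, on TAIR10. No source used here states how strand and reads of several places were handled.

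Coverage was a whole multiple of 1 step per library (to within 1.07e-08 of a read), which gave the library totals. Reads of a locus are its summed coverage divided by 50. These numbers, and the intervals from them, are approximate if reads aligned over fewer bases. To count reads of several places once, coverage was divided by the mean number of exact genomic places of the stretches over each base. Stretches of IR71 were 42.8% unique, of IR2039 98.0%, of the other loci 100%. Positions were read as counted from 1: at 1177 matching bases of the IR71 arms, coverage differed by 2.27% (DCL4-8:FHA) and 1.63% (DCL4-6:FHA) of its sum, against 4.84% and 4.22% counted from 0. The TAS1a positions, however, run from 11721538 to 11722467, and its annotated gene from 11721539 to 11722468. That alone would go with counting from 0, so coordinates and sequences placed by coverage may be off by 1 base. Intervals are 95%: Clopper-Pearson for shares, exact conditional for ratios and odds ratios, Poisson for levels. The procedures for shares and ratios were run on counts simulated from the models they assume. Those counts held no PCR copies and no reads counted at several places, so this checks the computation only. The floor is 3 reads. Read starts were left out, because starts of fixed length could be recovered in 3 of 18 pairs of library and locus only. Work was done in Python 3 with scipy and blastn. Every locus is named; bins were named by a difference above 5 points with separate intervals. The members and lists were chosen with earlier results of these data known.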

Additional observations from a re-analysis of the deposited data

Results flagged for a closer look

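IR71 and miR822 drew attention because the alleles differed in opposite directions in the 2 tissues. At IR71 the log2 ratio of DCL4-8:FHA over DCL4-6:FHA was -1.12 in seedlings and 2.72 in flowers. At miR822 it was 0.47 in seedlings and -1.07 in flowers. Each value rests on 1 library a line and tissue, so the difference between tissues was not tested beyond counting error.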

How the results depend on the processing

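The TAS share of DCL4-8:FHA (90.0%) was 83.2% without TAS2, 94.0% without IR71 and 91.4% with reads of several places counted once. That of DCL4-6:FHA (15.9%) was 5.58% without TAS2, 43.6% without IR71, 23.7% from mean coverage per position, 20.6% with reads counted once and 14.4% less the WT level. It stayed below that of DCL4-8:FHA under each of these settings. The log2 ratio of the TAS class minus the fold-back class was 5.58 from sums and 5.05 from class medians. By the median over positions, IR71, IR2039 and miR822 alone had a ratio, with 2 higher (IR2039 and miR822) and IR71 lower as before; at the other loci that median is 0 in a line. After subtracting the median log2 ratio of the loci, 4 were higher in place of 7 and 3 lower in place of 1; IR2039 turned to -3.17, miR822 to -4.20 and TAS3b to -2.64 (log2). Taking the highest position of a locus, miR822 turned to -0.019. Less the WT level TAS1b had no ratio. Counting each read start once was not run, since starts could not be recovered. At TAS2 the part of coverage placed differently was 13.4% with bins of 21 nt; at TAS1a it was 9.38% with bins of 100 nt. No paired analysis was possible because each group holds 1 library. The windows of 100 nt and 300 nt were chosen after seeing the data. In DCL4-6:FHA the profiles of TAS1a, TAS1c and TAS3a rest on 49 to 85 reads, and depth limits what they can show.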

Other observations

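Net upward steps of coverage, a description chosen after the data were seen, had their largest value at the same base in both lines at TAS1c and TAS3a. At IR71, IR2039, miR822, TAS1a and TAS2 the largest step differed. At TAS1a the steps were at neighbouring positions of chromosome 2, 11721924 in DCL4-8:FHA and 11721923 in DCL4-6:FHA. At TAS2 the largest 2 steps of both lines lay at positions 16539860 and 16539864 of chromosome 2. They were 1195 and 1176 reads in DCL4-8:FHA, and 51 and 65 reads in DCL4-6:FHA. The stretch of 50 nt from 16539860 to higher coordinates is given on the strand of TAS2, the minus strand, so this position is the last base printed.
TAS2 stretch: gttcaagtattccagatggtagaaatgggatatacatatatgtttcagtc
At TAS3a the largest 2 steps of both lines lay at 5862123 and 5862125 of chromosome 3, with 670 and 356 reads in DCL4-8:FHA and 12 and 8 reads in DCL4-6:FHA. This is just 3′ of the 5′ miR390 site.
TAS3a stretch: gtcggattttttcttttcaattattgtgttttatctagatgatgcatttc
At TAS1c the largest step of both lines lay at 16537714 of chromosome 2, with 297 reads in DCL4-8:FHA and 5 in DCL4-6:FHA.

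Of the 10 largest steps of each line, 9 were shared at miR822, 8 at TAS2, 6 at IR2039 and at TAS1c, 5 at TAS1a and at TAS3a, and 4 at IR71. In DCL4-6:FHA the smaller of these steps are of few reads and include ties. The 10 largest held 51.7% of the upward steps of TAS2 in DCL4-8:FHA and 61.0% in DCL4-6:FHA. Steps carry no strand, and whether repeat reads of 1 fragment add to them was not tested.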
